A study of Mus musculus with 2 samples.

Results

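Mir106b-25 and Mir106a-363 are the paralogous relatives of the Mir17-92 cluster, a group of microRNA (miRNA) genes linked to cell proliferation. Here they comprise the 9 genes Mir106b, Mir93 and Mir25, and Mir106a, Mir18b, Mir20b, Mir19b-2, Mir92-2 and Mir363, taken by gene symbol from the 1973 miRNA gene rows of the count tables. Small RNA below 30 nt was sequenced from the forebrain of B6NCrl mouse embryos at day 15.5. There was 1 group of 2 biological replicates, with no treatment, mutation or other condition. Replicate 2 pooled the forebrains of 62 male and female embryos and replicate 1 those of 78. Each library is therefore an average over a pool of whole forebrains with all their cell types. The labels do not say whether the pools shared litters or a dissection day. Part of the difference between libraries may for that reason be technical.

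A miRNA is cut as a short RNA from either arm of a hairpin precursor, and it lowers the output of messenger RNAs that pair with its seed, the bases near its 5′ end. Several hairpins can lie on 1 primary transcript, which is cut by Drosha in the nucleus before Dicer releases the mature products. The Mir106b-25 hairpins lie in an intron of Mcm7, which encodes a subunit of the replicative DNA helicase. In the mouse brain this cluster has been linked to the proliferation of neural stem and progenitor cells. Targets known for the miR-17 seed include the cell cycle inhibitor Cdkn1a, and those of the miR-25/92 seed the pro-apoptotic gene Bcl2l11.

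All 9 genes had mature sequences in the RefSeq table (GRCm38.p6, the same assembly as mm10). They are shown to make the seed families visible, and the capitals mark the seed, bases 2 to 8 from the 5′ end. The miR-17 seed was held by 4 of the 9 genes, and Mir17 and Mir20a of the Mir17-92 cluster are given with them:
miR-106b-5p (Mir106b): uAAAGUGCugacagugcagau
miR-93-5p (Mir93): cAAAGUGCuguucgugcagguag
miR-106a-5p (Mir106a): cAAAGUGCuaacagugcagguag
miR-20b-5p (Mir20b): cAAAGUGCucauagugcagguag
miR-17-5p (Mir17): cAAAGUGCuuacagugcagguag
miR-20a-5p (Mir20a): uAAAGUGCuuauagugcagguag

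The miR-25/92 seed was held by Mir25, Mir92-2 and Mir363, here with Mir92-1 of Mir17-92 and the single gene Mir92b:
miR-25-3p (Mir25): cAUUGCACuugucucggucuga
miR-92a-3p (Mir92-2 and Mir92-1): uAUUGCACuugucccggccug
miR-363-3p (Mir363): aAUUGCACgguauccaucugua
miR-92b-3p (Mir92b): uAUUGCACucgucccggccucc

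The miR-18 and miR-19 seeds were each held by 1 of the 9 genes, shown with their Mir17-92 relatives:
miR-18b-5p (Mir18b): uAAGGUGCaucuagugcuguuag
miR-18a-5p (Mir18): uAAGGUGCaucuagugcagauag
miR-19b-3p (Mir19b-2 and Mir19b-1): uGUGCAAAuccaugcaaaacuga
miR-19a-3p (Mir19a): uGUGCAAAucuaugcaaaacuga

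Substitutions are written with the Mir17-92 base first, then the position from the 5′ end and the base of the paralog. The sequence of miR-106a-5p differed from miR-17-5p by U10A alone. Between miR-18a-5p and miR-18b-5p the changes were A18U and A20U, and between miR-20a-5p and miR-20b-5p they were U1C and U10C. Relative to miR-92a-3p, miR-25-3p carried U1C, C14U and C18U. The sequences of miR-19b-3p and miR-92a-3p were the same at both of their genes. Of the 9 genes, Mir19b-2 and Mir92-2 were the only ones whose seed-bearing arm also stood in another miRNA hairpin of the table. This bears on every level below, because reads placed at more than 1 locus stayed in a row of their own that names no gene. In replicate 2 that row took up 42.4% of the reads, against 44.6% in replicate 1.

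The Mir106b-25 cluster spans 498 bases on the minus strand of chromosome 5 (mm10, 138165321 to 138165818). All 3 hairpins lie in intron 13 of the Mcm7 transcript with 15 exons, and Mir93 and Mir25 also fall in exon 1 of a short 2-exon Mcm7 transcript. Mir106b (138165737 to 138165818) comes first, then Mir93 (138165523 to 138165610), 208 bases from the 5′ end of the cluster, and Mir25 (138165321 to 138165404), 414 bases from it. Their precursors are shown with the annotated mature arms in capitals, since the counts of a gene row do not tell the arms of a hairpin apart:
Mir106b: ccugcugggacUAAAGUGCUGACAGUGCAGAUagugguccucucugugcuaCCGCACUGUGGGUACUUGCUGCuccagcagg
Mir93: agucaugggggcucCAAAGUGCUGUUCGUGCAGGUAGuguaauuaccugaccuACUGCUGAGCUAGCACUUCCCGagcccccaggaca
Mir25: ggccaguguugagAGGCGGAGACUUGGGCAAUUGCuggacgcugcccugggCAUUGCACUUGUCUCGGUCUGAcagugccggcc

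The Mir106a-363 cluster spans 875 bases on the minus strand of chromosome X (mm10, 52741693 to 52742567). Its order from the 5′ end is Mir106a (52742503 to 52742567), Mir18b (52742331 to 52742413), Mir20b (52742113 to 52742192), Mir19b-2 (52741983 to 52742066), Mir92-2 (52741838 to 52741928) and Mir363 (52741693 to 52741767). Mir106a lies in the last exon of the noncoding transcript Kis2, and no annotated host overlapped the other 5 genes. The same order of seeds, without Mir363 and with Mir19a added, stands in Mir17-92 on chromosome 14 (115043671 to 115044506), within an exon of Mir17hg.

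Replicate 2 held 4753555 counts on the strand of miRNA genes and replicate 1 held 4464927. Levels are given as CPM, counts scaled so that the gene rows of a library sum to 1000000. No division by length was made, as a read covers a whole mature miRNA of 21 to 24 bases. Intervals and floors cover counting error only, as the reads carry no molecular identifier and 1 molecule can give several reads. The forebrain label was checked on the markers listed for brain. Neuronal Mir137 stood at 8437 CPM (replicate 2) and 9747 CPM (replicate 1), while liver Mir122 was at 88.6 and 65.6 CPM. Also listed for brain, Mir153, Mir128-1, Mir128-2 and Mir9-3 averaged 2112, 2002, 1152 and 733 CPM, and Mir9-1 had no row. The Mir124a genes, whose mature sequence is also shared between copies, were near 0, at 1.05 to 2.80 CPM on average, as was Mir9-2 at 3.26 CPM. Of markers of other cell types, endothelial Mir126a was high, at 16377 CPM (replicate 2) and 15856 CPM (replicate 1). The 5 pluripotent genes, 4 of them detected, summed to 261 CPM in either library, the 2 immune genes with a row to 167 and 164 CPM, and the 3 erythroid genes to 165 and 140 CPM. Of the 4 muscle genes with a row 3 had no count, and Mir206 had 4.84 and 20.6 CPM.

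Each of the 9 genes reached the detection minimum of 10 counts per library, as did 370 of the 1973 rows (18.8%). Summed over its genes, Mir106b-25 was far above Mir106a-363, through Mir93 and Mir106b. By contrast, Mir25 was 1.85-fold (replicate 2) and 1.71-fold (replicate 1) above Mir106a, the highest gene of Mir106a-363. Mir106b-25 held 133431 counts in replicate 2 (2.81% of gene counts) and 128850 in replicate 1 (2.89%). Mir106a-363 held 4449 counts in replicate 2 (0.0936%) and 3804 in replicate 1 (0.0852%). The chromosome 5 cluster was thus 30.0-fold higher than the X-linked cluster in replicate 2 and 33.9-fold higher in replicate 1.

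Mir93, the middle hairpin of the Mcm7 intron, was the most abundant of the 9 genes. It had 18166 CPM in replicate 2 (Clopper-Pearson 95% interval 18046 to 18286) and 19053 CPM in replicate 1 (interval 18926 to 19180), a mean of 18609 ± 627 CPM (SD, n = 2). It ranked 11 of all rows, between Mir149 (19413 ± 108 CPM) and endothelial Mir126a (16117 ± 369 CPM).

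Mir106b, the first hairpin of the intron, had 9256 CPM in replicate 2 (95% interval 9170 to 9342) and 9242 CPM in replicate 1 (interval 9153 to 9331), a mean of 9249 ± 9.59 CPM (SD, n = 2). It ranked 20, between Mirlet7d and the neuronal miRNA Mir137, whose means of 9335 ± 1063 and 9092 ± 926 CPM were within their own SD of it. Mir93 exceeded Mir106b by 1.96-fold in replicate 2 and 2.06-fold in replicate 1.

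Mir25, the last hairpin and the only one of the intron with the miR-25/92 seed, stood far below both. It had 648 CPM in replicate 2 (95% interval 625 to 671) and 564 CPM in replicate 1 (interval 542 to 586), a mean of 606 ± 59.7 CPM (SD, n = 2), and ranked 105. The seed-bearing arm of Mir25 was in no other hairpin of the table, and the longest run its hairpin shared with another was 12 bases, with Mir8104. Among GENCODE transcripts of other genes, this arm stood only in those of the host Mcm7. The genome was not searched for copies. Mir93 was 28.0-fold higher than Mir25 in replicate 2 and 33.8-fold higher in replicate 1. Of the counts of the cluster, Mir93 held 65.4% ± 0.922, Mir106b 32.5% ± 0.670 and Mir25 2.13% ± 0.251 (SD, n = 2). The order of the shares was the same in the 2 pools. Mir25 held 2.31% in replicate 2 (95% interval 2.23 to 2.39) and 1.95% in replicate 1 (interval 1.88 to 2.03).

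**Figure D1:**
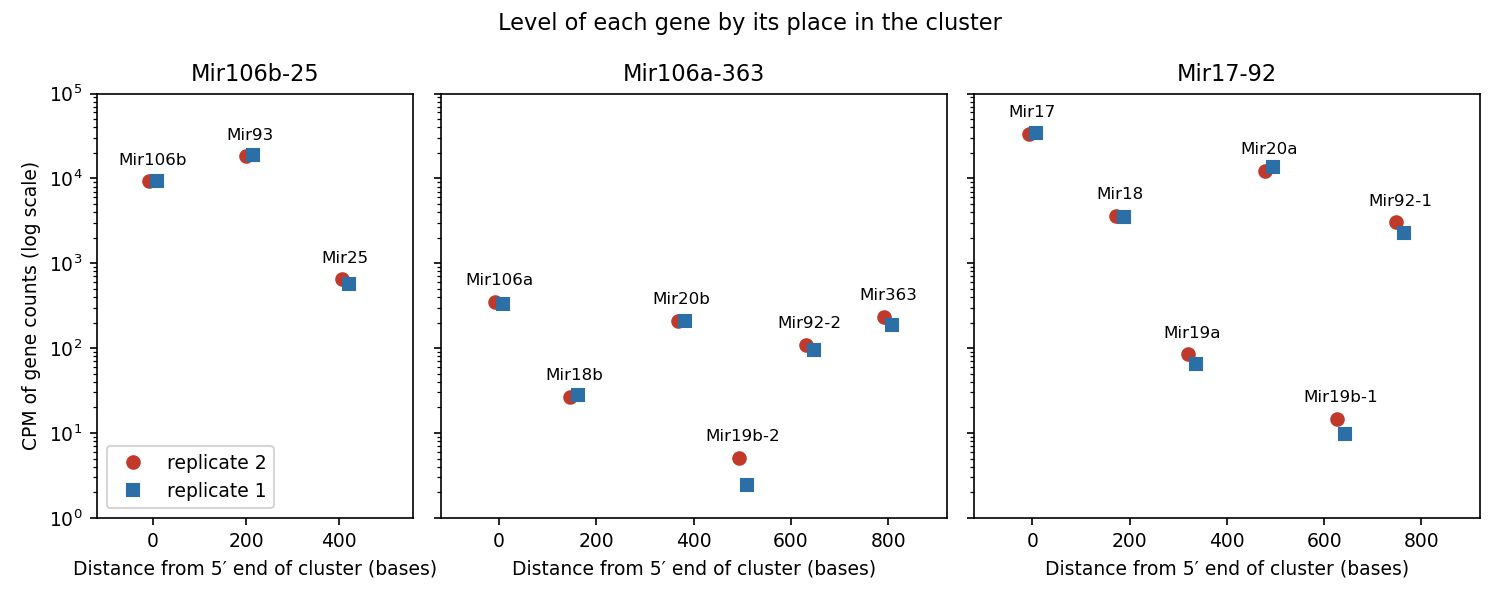
CPM of each gene (log scale) against the distance of its hairpin from the 5′ end of its cluster, in bases, for Mir106b-25, Mir106a-363 and Mir17-92; circles are replicate 2 and squares replicate 1, drawn slightly apart. Mir93 and Mir106b stand near 18609 and 9249 CPM and Mir25 at 606 CPM, while the highest gene of Mir106a-363 is Mir106a at 340 CPM and the miR-19 genes are the lowest of their clusters.

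Within Mir106a-363 the first hairpin was the highest. Mir106a, which carries the miR-17 seed, had 351 CPM in replicate 2 (95% interval 334 to 368) and 329 CPM in replicate 1 (interval 312 to 346), a mean of 340 ± 15.5 CPM (SD, n = 2). It ranked 127. Mir20b, the other gene of this seed, had 211 CPM in replicate 2 and 210.3 CPM in replicate 1 and ranked 152.

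Mir363, the last hairpin and the gene with no counterpart in Mir17-92, had 234 CPM in replicate 2 (95% interval 220 to 248) and 188 CPM in replicate 1 (interval 176 to 202). Its mean of 211 ± 31.9 CPM (SD, n = 2) was next to that of Mir20b, at 211 ± 0.788 CPM. The order of Mir363 and Mir20b turned round between the libraries and the SD of Mir363 was larger than the gap between their means. The mature sequence of Mir363 differed from that of Mir25 at 13 of 22 bases and from that of Mir92-2 at 11 of 21, and no other hairpin held it. Of the 8 pairs of neighbours in the order of levels over the 9 genes, this was the only one not separated. In the other 7 the means differed by more than the larger SD and both libraries gave the same order. For the pairs that include Mir92-2 or Mir19b-2 this covers counted reads only, as reads placed at more than 1 locus are not in gene rows.

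Mir18b, the gene with the miR-18 seed, had 26.5 CPM in replicate 2 and 27.8 CPM in replicate 1, from 126 and 124 counts. It held 2.83% of the cluster's counts in replicate 2 and 3.26% in replicate 1. Neighbours in rank were the Hox-cluster gene Mir196b and Mir26a-2, at 27.2 ± 2.33 and 26.4 ± 1.28 CPM.

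Mir92-2 and Mir19b-2 are the members with a copy in Mir17-92, and their levels are uncertain for that reason. Mir92-2 had 109 CPM in replicate 2 and 94.3 CPM in replicate 1. Mir19b-2 was the lowest of the 9, at 5.05 CPM in replicate 2 (24 counts, 95% interval 3.23 to 7.51) and 2.46 CPM in replicate 1 (11 counts, interval 1.23 to 4.41). Its rank of 349 was set by few counts, and with at least 100 counts in each library asked for, 8 of the 9 genes were detected without it.

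The hairpins of the miR-92a pair are shown because they hold the same mature arm and were counted at very different levels. Capitals mark the annotated arms, the second of which is miR-92a-3p in both:
Mir92-2: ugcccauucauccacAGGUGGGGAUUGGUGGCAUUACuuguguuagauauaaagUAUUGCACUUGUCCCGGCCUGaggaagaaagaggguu
Mir92-1: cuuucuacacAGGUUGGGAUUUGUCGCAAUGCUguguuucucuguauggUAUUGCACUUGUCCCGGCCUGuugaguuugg

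The base after the shared arm is A in Mir92-2 and U in Mir92-1, the longest run the hairpins share is 22 bases, and their other arms differ at 5 of 22 bases. A read that ends within the shared run has a match at both loci, and 1 that runs on past it has a match at 1 of them. How many reads of either gene did so cannot be read from counts per gene. Mir92-2 held 517 counts in replicate 2 and 421 in replicate 1, which was 3.59% and 4.13% of the counts of Mir92-1. For the miR-19b pair the shared run was 25 bases, longer than the mature sequence of 23. Mir19b-2 held 34.3% of the counts of Mir19b-1 in replicate 2 and 25.6% in replicate 1, and Mir19b-1 itself was at 12.2 ± 3.60 CPM.

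The genes were set against their counterparts in Mir17-92, by seed and place in the cluster. Mir106b-25 summed to 28070 CPM in replicate 2 and 28858 CPM in replicate 1, against 52514 and 53839 CPM for Mir17-92. This was 53.5% and 53.6% of the Mir17-92 level, nearly the same in both pools. Without the genes of the miR-19b and miR-92a pairs, Mir106b-25 stood at 56.7% and 56.0% of Mir17-92. Mir93 was above Mir20a, at 148% of its counts in replicate 2 and 140.2% in replicate 1. Mir106b was at 27.6% and 26.9% of Mir17, and Mir25 at 21.4% and 24.7% of Mir92-1. Reads of miR-92a-3p placed at both of its loci are not in the row of Mir92-1.

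Mir106a-363 summed to 936 CPM in replicate 2 and 852 CPM in replicate 1, which was 1.78% and 1.58% of Mir17-92. Gene by gene, Mir106a had 1.05% of the counts of Mir17 in replicate 2 and 0.957% in replicate 1. Mir18b had 0.736% and 0.784% of the counts of Mir18, and Mir20b 1.72% and 1.55% of those of Mir20a. These are the pairs with mature sequences that differ at only 1 or 2 bases, and how many reads of the abundant gene were counted in the row of the rarer one was not tested. Without the genes of the miR-19b and miR-92a pairs, Mir106a-363 stood at 1.66% and 1.47% of Mir17-92, and Mir106b-25 was 34.1-fold and 38.2-fold higher than Mir106a-363.

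**Figure D2:**
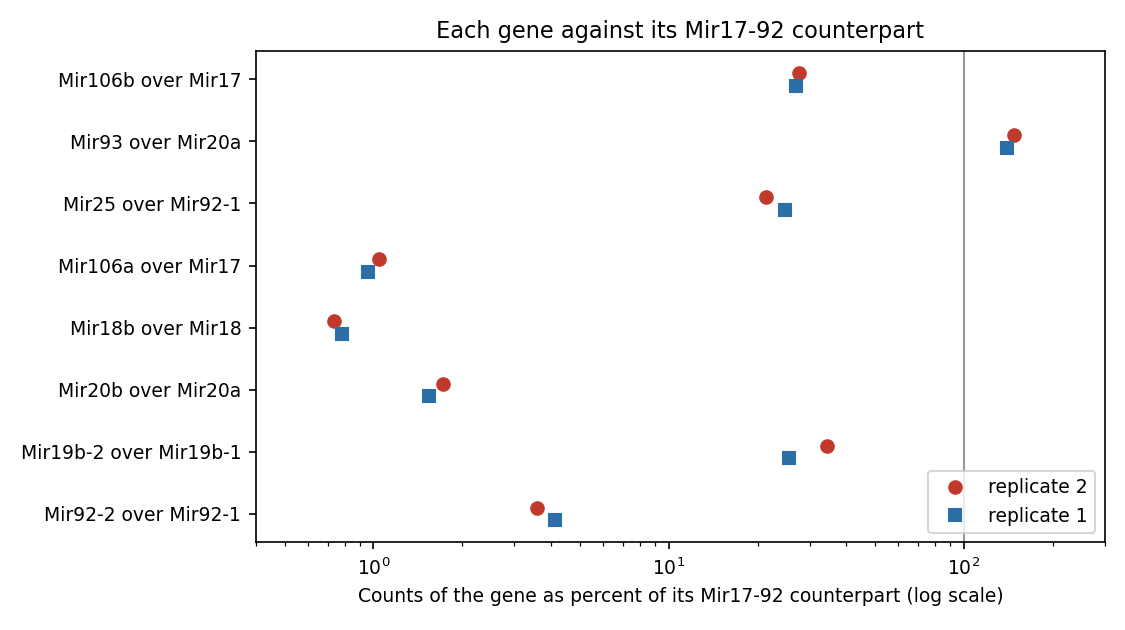
Counts of each paralog as a percent of the counts of its Mir17-92 counterpart (log scale), with replicate 2 as circles and replicate 1 as squares; the vertical line marks 100%. Mir93 lies to the right of the line at 148% and 140.2%, and Mir106a, Mir18b and Mir20b lie between 0.736% and 1.72%.

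By seed family the clusters contributed very unequally. Over the 6 genes with the miR-17 seed that had a count, Mir106b and Mir93 held 37.2% of the counts in replicate 2 (95% interval 37.0 to 37.3) and 36.9% in replicate 1 (interval 36.7 to 37.0), a mean of 37.0% ± 0.225 (SD, n = 2). Mir106a and Mir20b held 0.762% and 0.702%, and Mir17 and Mir20a the remaining 62.1% and 62.4%. A seventh gene of the reference with this seed, Mir6383, had no count. In the miR-18 family Mir18b held 0.731% in replicate 2 and 0.778% in replicate 1, and Mir18 the rest.

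In the miR-25/92 family the paralogs were minor. Mir25 held 6.25% of the counts in replicate 2 (95% interval 6.04 to 6.47) and 6.80% in replicate 1 (interval 6.54 to 7.06). Mir92-2 and Mir363 together held 3.30% and 3.41%, and Mir92-1 held 29.2% and 27.5%. The other 3 genes of the seed held 61.2% and 62.3%, nearly all from Mir92b, at 6123 CPM in replicate 2 and 4971 CPM in replicate 1. Mir92b is known as a gene of neural progenitors. Mir32, in an intron of Tmem245, stood at 230 CPM in replicate 2 and 193 CPM in replicate 1, and Mir367 had 2 counts in replicate 2 and 0 in replicate 1, where 3 counts would be 0.672 CPM. Reads of miR-92a-3p that fell on both of its loci are in none of these shares. In the miR-19 family Mir19b-2 held 4.83% of 497 counts in replicate 2 and 3.21% of 343 in replicate 1, and Mir19a most of the rest. Reads of miR-19b-3p placed at both of its loci are not in these counts, while miR-19a-3p stood in no other hairpin. The shares therefore do not rank the genes of this family.

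**Figure D3:**
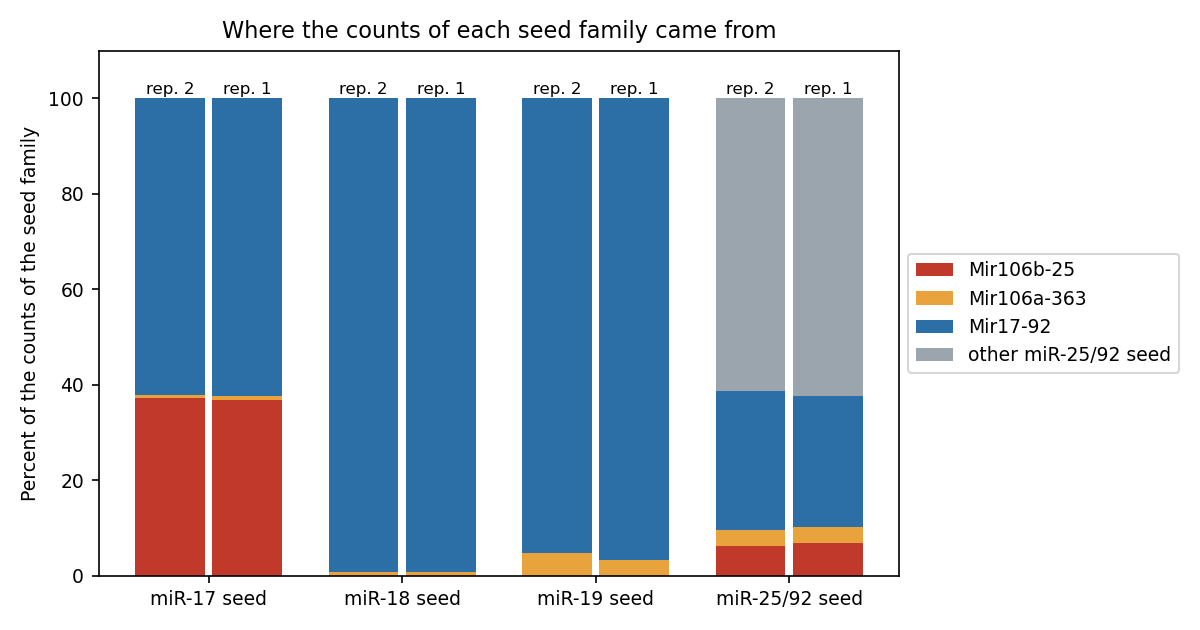
Percent of the counts of each seed family that came from each cluster, with replicate 2 as the left bar and replicate 1 as the right bar of each pair. Mir106b-25 fills 37.2% and 36.9% of the miR-17 seed bars and 6.25% and 6.80% of the miR-25/92 seed bars, and Mir106a-363 is a thin band in all 4. Reads of miR-19b-3p and miR-92a-3p placed at both of their loci are not included.

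The pools were compared gene by gene by an exact binomial test, two-sided, on each gene's counts with library totals as the expectation, adjusted over all 457 genes tested (Benjamini-Hochberg). It compares these 2 libraries and not conditions. Calls were made for 3 of the 9 genes, with replicate 2 higher for 2 of them and lower for 1. The background was 166 of 457 genes called (36.3%), with 88 higher (19.3%) and 78 lower (17.1%), so the share of the 9 called was near that of all genes tested. Among genes with at least 100 counts in total, 3 of 8 members were called, below the background of 158 of 298 genes (53.0%). Of all calls, 53.0% were higher in replicate 2, against 42.9% with TMM scaling (the trimmed mean of ratios of edgeR) and 69.1% with the most abundant gene Mir99a left out of the total. The median log2 ratio, replicate 2 over replicate 1, was 0.09 over the 9 genes and 0.05 over all genes tested. Fewer cells of a type and less RNA per cell cannot be told apart in such pools.

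Of the 3 members with the miR-25/92 seed, 2 were called, both higher in replicate 2. The log2 ratio of Mir363 was 0.31 (adjusted p = 1.03e-05 by the exact binomial test) and that of Mir25 was 0.20 (adjusted p = 1.05e-06 by the same exact test). Both calls held with TMM scaling, with DESeq2 size factors and without Mir99a in the total. Mir92-2, at 0.21, missed the threshold (adjusted p = 0.0797 by the exact test) and passed it without Mir99a (adjusted p = 0.0144). In the whole seed family 5 of the 6 genes tested were called, each of them higher. The other 3 were Mir92-1, Mir92b and Mir32, with log2 ratios of 0.41, 0.30 and 0.26. The progenitor marker Mir92b is itself among these 5. Of all 298 genes with at least 100 counts in total, 83 were called higher and 75 lower (53.0% in either direction). Markers of other cell types were also called higher in replicate 2, by log2 ratios of 0.43 for liver Mir122, 0.42 for neuronal Mir153, 0.35 for erythroid Mir144 and 0.35 for immune Mir223. Endothelial Mir126a was called higher by 0.05. So was neuronal Mir124a-3, on few counts (10 in replicate 2 and 0 in replicate 1). Muscle Mir206 (-2.07), immune Mir155 (-0.34) and the neuronal genes Mir137 (-0.21) and Mir128-1 (-0.08) were called lower. Not called were erythroid Mir451a (0.22) and Mir486 (0.03) and the pluripotent Mir302 genes (-0.03 to 0.25). Nor were Mir128-2 (-0.03), Mir9-3 (-0.06), Mir9-2 (-0.28), Mir124a-1 (0.79) and Mir124a-2 (1.16) of the brain list, the last 3 on few counts. The part of these cell types in the result was not tested.

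Of the 4 members with the miR-17 seed, Mir93 alone was called, lower in replicate 2 by a log2 ratio of -0.07 (adjusted p = 5.45e-22 by the exact binomial test). The call held with TMM scaling (log2 ratio -0.109) and with DESeq2 size factors (-0.096). It was lost without Mir99a in the total (log2 ratio -0.0091, adjusted p = 0.330 by the exact test). Mir106b had 0.0021 and Mir20b 0.0076, both not called, and the sign of both turned with TMM and DESeq2 scaling. Mir106b was called lower with those scalings and higher without Mir99a. Mir106a, at 0.09, missed the threshold (adjusted p = 0.169 by the exact test) and was called higher without Mir99a. In the whole family 3 of 6 genes were called, against 53.0% of all genes with at least 100 counts in total (75 of 298 called lower). Each of the 3 was lower: Mir93, Mir17 at -0.04 and Mir20a at -0.15. Mir17 was higher without Mir99a. Mir18b, at -0.07, and Mir19b-2, at 1.00 from 24 and 11 counts, were not called.

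The spread expected between 2 replicates, from the edgeR biological coefficient of variation of 15.0% over the 370 detected genes, was 0.31 on the log2 scale (1 SD of a log2 ratio). Counting error is not part of this value and is larger at low counts. Of the 9 genes, 7 were within the expected spread. The exceptions were Mir363, at the limit (0.27 with TMM scaling), and Mir19b-2, with 24 and 11 counts. The called difference of Mir25 is thus beyond counting error but within the usual spread between these libraries. That of Mir93 was within this spread too, and its call was lost with Mir99a left out of the total. A ratio inside a library does not depend on scaling: Mir93 over Mir25, from the same intron, was 28.0 in replicate 2 and 33.8 in replicate 1.

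**Figure D4:**
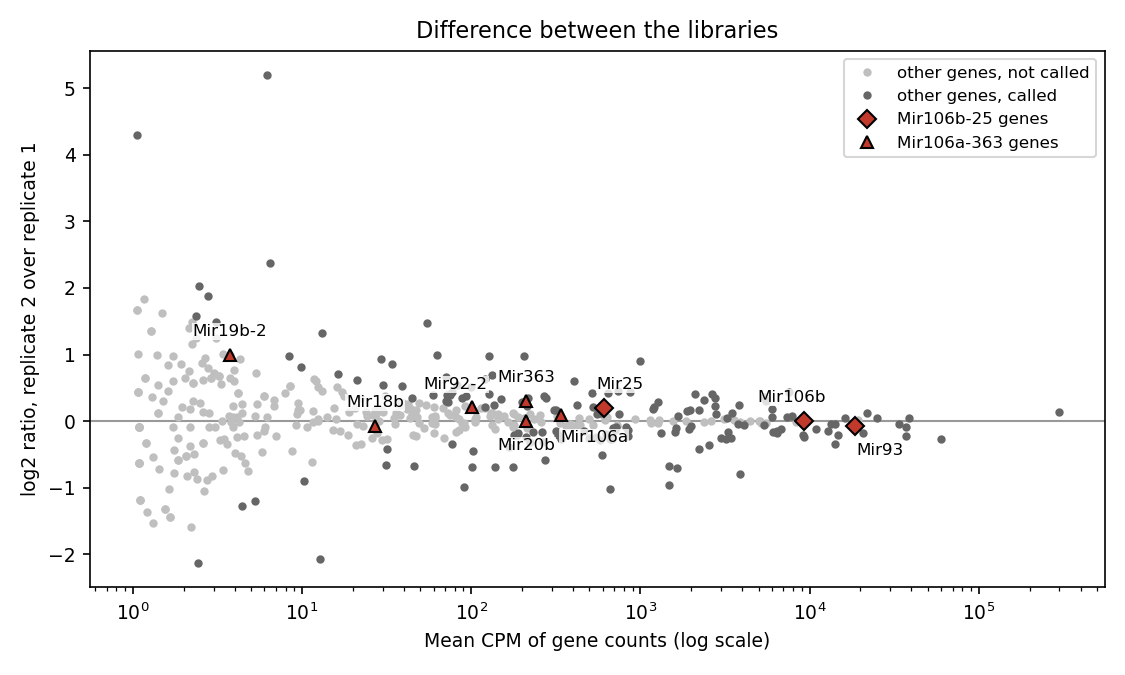
Log2 ratio of replicate 2 over replicate 1 against mean CPM (log scale) for the 457 genes tested; diamonds are the Mir106b-25 genes, triangles the Mir106a-363 genes, and dots the other genes, dark where called. Every named gene but Mir19b-2, at 1.00, lies within about 0.31 of 0.

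None of the 9 genes had a count on the opposite strand in either library. The limit that this allows follows the counts of each gene. For Mir93 it was 0.00347% in replicate 2 and 0.00353% in replicate 1, for Mir18b 2.38% and 2.42%, and for Mir19b-2 12.5% and 27.3%. Among 280 genes that reached 100 counts per library with strands added together, 40 (14.3%) had an opposite-strand count.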

How the data were processed

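Raw read counts for each miRNA gene were used as the authors deposited them, in 1 file per library and not normalized. The text deposited with them names the mm10 genome and GENCODE M4 genes. No aligner or counter is named in the sources used here. Column 3, the strand column with by far the larger total, was used as the sense strand. The 4 rows that name no gene (multi-mapping, unmapped at 18.2% in replicate 2 and 14.3% in replicate 1, no feature at 3.07% and 3.03%, and ambiguous at 0) stayed out of library sizes and tests.

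Symbols, positions and hosts came from GENCODE M21 by gene identifier (1894 of 1973 rows matched), and miRNA sequences from RefSeq. CPM used the sum of gene rows, and SDs are over n = 2. The binomial test covered genes with at least 10 counts in total, at an adjusted p of 0.05, with ratios after adding 0.5 counts. It was run on simulated counts with counting error only, which is the assumption of the test. That run does not show how the test behaves with the spread between these libraries. No quasi-likelihood test was run, since 1 group has no contrast. Tools were scipy 1.17.1, statsmodels 0.14.6, edgeR 4.0.16 (TMM factors and common dispersion with an intercept only) and DESeq2 1.42.0 (size factors). Alternatives were other scalings, strands, count minimums and pseudocounts, leaving out shared genes and leaving out each replicate. Named genes were the 9 members, the Mir17-92 cluster, other genes of the miR-25/92 seed, the most abundant gene, cell type markers and the genes next in rank to a member. Members and lists were chosen with earlier results of these data known. Mir6383 and Mir8104 were named after their values or sequences were seen.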

Additional observations from a re-analysis of the deposited data

How the results depend on the processing

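No paired analysis was possible because there is 1 group. Of 249 recomputed values, 220 kept their direction and call, or stayed within their spread. Part of these 220 could not have come out otherwise, so the count is no measure of stability. A level, share or ratio from a single library always lies within the SD around the mean of both libraries. The pseudocount enters the ratios but not the exact test, so it could not change a call. Counting either strand hardly altered shares and ratios, as the 9 genes had no opposite-strand count. CPM levels depend on the total: with the most abundant gene left out, 8 of the 9 levels moved up by more than their SD (Mir93 to 26462 CPM), by construction, and on either strand those of Mir106b (9107 CPM) and Mir20b (208 CPM) moved. With that gene left out, 5 of the 9 genes were called between the libraries, against 181 of all 457 genes tested (39.6%). The sign of the log2 ratio between libraries turned for Mir106b (-0.0381 with TMM, -0.0252 with DESeq2), Mir20b (-0.0326 and -0.0197), Mir18 (-0.0165 and -0.0036) and, with that gene left out, Mir17 (0.0239). Without genes whose mature sequence stands in another hairpin, the log2 ratio of Mir106b-25 over Mir106a-363 was 5.17 and over Mir17-92 -0.83. The shares of Mir106b-25 and Mir106a-363 in the miR-25/92 family were then 9.24% and 3.21%, and that of Mir17-92 in the miR-19 family 100%, since no X-linked gene of that seed was left. The causes were not tested. Leaving out a replicate gave the single-library values above, and no test between libraries. Low counts limit Mir19b-2 and Mir18b.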
